A study of Mus musculus with 9 samples.

Results

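The 31 genes described here are genes that mark astrocytes in mouse brain, read from RNA sequencing of dissected midbrain. They were taken as the rows whose Ensembl identifier maps to a fixed list of gene symbols, out of 47729 rows in each of 9 count files. All 31 were among the 17671 genes with enough counts to be tested, and the lowest count of any of them in any library was 411, for Cldn10. By role they were divided into 3 reactive genes (Gfap, Vim and Serpina3n), 9 transport genes, 7 metabolism genes and 12 others (receptors, secreted proteins, adhesion proteins and a transcription factor).

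The mice were C57/Bl6 at postnatal day 180, and every group carried 1 Pitx3-Cre allele and a Rosa-lox-stop-lox-Yfp reporter. The groups differed in floxed alleles of Dot1l, the methyltransferase of histone H3 lysine 79: the control Dot1l(+/+) had 0, Dot1l(fl/+) had 1 and Dot1l(fl/fl) had 2. Cre was expressed from the Pitx3 locus, which in midbrain is active in dopamine neurons, so the model does not direct the deletion to astrocytes. There were 3 libraries per genotype, each made from the pooled tissue of 3 mice, and p-values measure the spread between such pools. The series text speaks of sorted embryonic cells and the source label names dopamine neurons, whereas the labels of these 9 libraries give dissected midbrain at 180 days.

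The markers of other cells showed that the tissue was mixed. Summed over fixed lists, 12 oligodendrocyte genes had 10921 to 12492 CPM (counts scaled to a common library size after trimmed-mean normalization, TMM), 10 dopamine neuron genes had 581 to 825 and 12 microglial genes had 393 to 473. Library totals ran from 16422135 in Dot1l(fl/fl) pool 3 to 28403218 in Dot1l(fl/+) pool 2, and this last pool stood furthest from its own group, with a chi-square per degree of freedom of 15.2 and 16.5 against the other pools of its genotype where all other pairs had 4.47 to 8.26. Dot1l itself had a log2 fold change of -0.19 in Dot1l(fl/+) (SE 0.0937, edgeR adjusted p = 0.620) and in Dot1l(fl/fl) of -0.07 (SE 0.0941, edgeR adjusted p = 0.999) against control. The count of the whole gene also holds exons outside the floxed exon, and so does not show the deletion.

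Astrocytes take up glutamate and potassium released by neurons, convert glutamate to glutamine, move water through their endfeet and are joined to each other by gap junctions. After injury, or near dying neurons, they become reactive: they build more intermediate filament protein, such as glial fibrillary acidic protein (GFAP) and vimentin, and secrete acute-phase proteins, such as the protease inhibitor encoded by Serpina3n. In the midbrain such astrocytes are known from models of dopamine neuron loss. In a tissue extract, fewer astrocytes and less RNA per astrocyte cannot be told apart.

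The promoters of the 3 reactive genes are shown because these genes are often read as a single response. The sequences are those of RefSeq on GRCm38.p6, from 250 bases before to 50 after the annotated start, and the table held 27 of the 31 genes. Capitals mark matches to TTCNNNGAA, the palindromic core bound by STAT factors, which reads the same on both strands. The Gfap window is chr11:102897151-102897450 on the minus strand, the Vim window chr2:13574061-13574360 on the plus strand and the Serpina3n window chr12:104406458-104406757 on the plus strand.
Gfap: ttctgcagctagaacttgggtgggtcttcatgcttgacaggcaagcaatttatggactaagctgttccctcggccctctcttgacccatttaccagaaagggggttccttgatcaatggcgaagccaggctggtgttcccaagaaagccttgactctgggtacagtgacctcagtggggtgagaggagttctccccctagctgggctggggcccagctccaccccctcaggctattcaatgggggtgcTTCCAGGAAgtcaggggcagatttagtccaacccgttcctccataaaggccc
Vim: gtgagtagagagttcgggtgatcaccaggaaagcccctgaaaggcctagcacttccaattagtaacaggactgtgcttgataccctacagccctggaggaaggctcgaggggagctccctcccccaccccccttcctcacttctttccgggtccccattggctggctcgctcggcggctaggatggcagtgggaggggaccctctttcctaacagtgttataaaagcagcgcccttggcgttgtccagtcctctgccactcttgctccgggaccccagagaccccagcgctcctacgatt
Serpina3n: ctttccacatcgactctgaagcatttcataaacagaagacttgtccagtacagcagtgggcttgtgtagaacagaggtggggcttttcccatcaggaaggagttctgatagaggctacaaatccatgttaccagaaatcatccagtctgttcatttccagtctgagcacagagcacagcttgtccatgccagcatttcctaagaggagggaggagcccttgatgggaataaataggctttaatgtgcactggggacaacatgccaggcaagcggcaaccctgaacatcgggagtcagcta
Gfap held 1 match, which began 2 bases before the start, whereas the windows of Vim and Serpina3n held none. Of the 27 genes 6 had a match (22.2%), Acsbg1, Agt, Aldoc, Gfap, Ntsr2 and Slc1a3, where 2726 of all 32851 promoters had one (8.30%). The first share counts genes and the second counts promoters, so the 2 are not in the same unit. A match to these letters describes the window and does not show that a factor binds there.

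Across the 31 genes, the 3 genotypes differed little. No member passed an adjusted p of 0.05 in any comparison, nor did any of the 17671 genes tested (0%), with edgeR's quasi-likelihood test and Benjamini-Hochberg adjustment. The study's first midbrain list for Dot1l(fl/+) used DESeq2 at an adjusted p under 0.05, and a larger list used an unadjusted p under 0.05. At that unadjusted level 5 members differed here between Dot1l(fl/+) and Dot1l(+/+), where the share over all genes was 8.39%. Between Dot1l(fl/fl) and Dot1l(+/+) 3 members differed (3.93% of all genes), of which 2 were higher (2.21% of all genes) and 1 was lower (1.72%). Between Dot1l(fl/fl) and Dot1l(fl/+) 2 members did (6.48% of all genes), 1 higher (3.60%) and 1 lower (2.87%). As shares of the 31 genes these counts are 16.1, 9.68 and 6.45%, and with so few members no departure from the background is read from them. DESeq2 on the 2 genotypes of a comparison alone called 2 members in Dot1l(fl/fl) against control at an adjusted p of 0.05, Slc15a2 and Itih3, and 0 in the other comparisons (0.318% of all genes in Dot1l(fl/+) against control, 0.0294% in Dot1l(fl/fl) against control and 0.0558% between the floxed genotypes). In edgeR without a filter on low counts 1 member, Cst3, passed an adjusted p of 0.05 in Dot1l(fl/+) against control, and 3, Slc15a2, Itih3 and Serpina3n, did in both other comparisons, where 0.886, 0.417 and 0.579% of all genes did in the 3 comparisons. In these 3 comparisons the median log2 fold change of the 31 genes was 0.02, 0.02 and -0.04, where that of all genes was -0.0034, 0.00090 and 0.0015. The 31 genes together took 1.14 to 1.22% of the counts of a library.

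The intervals bound what could have been missed. The 95% interval of the fold change lay within 1.5-fold in either direction for 30 of 31 genes in Dot1l(fl/+) and for 29 in Dot1l(fl/fl), each against control. The spread between pools of 1 genotype, as an SD on the log2 scale, had a median of 0.099 for the 31 genes and 0.13 for all genes tested. Serpina3n had the widest spread of the 31, with an SD of 0.49, higher than in 94.2% of the genes tested. It was followed by Slc15a2 (SD 0.25), Gfap (SD 0.20) and Itih3 (SD 0.20).

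**Figure D1:**
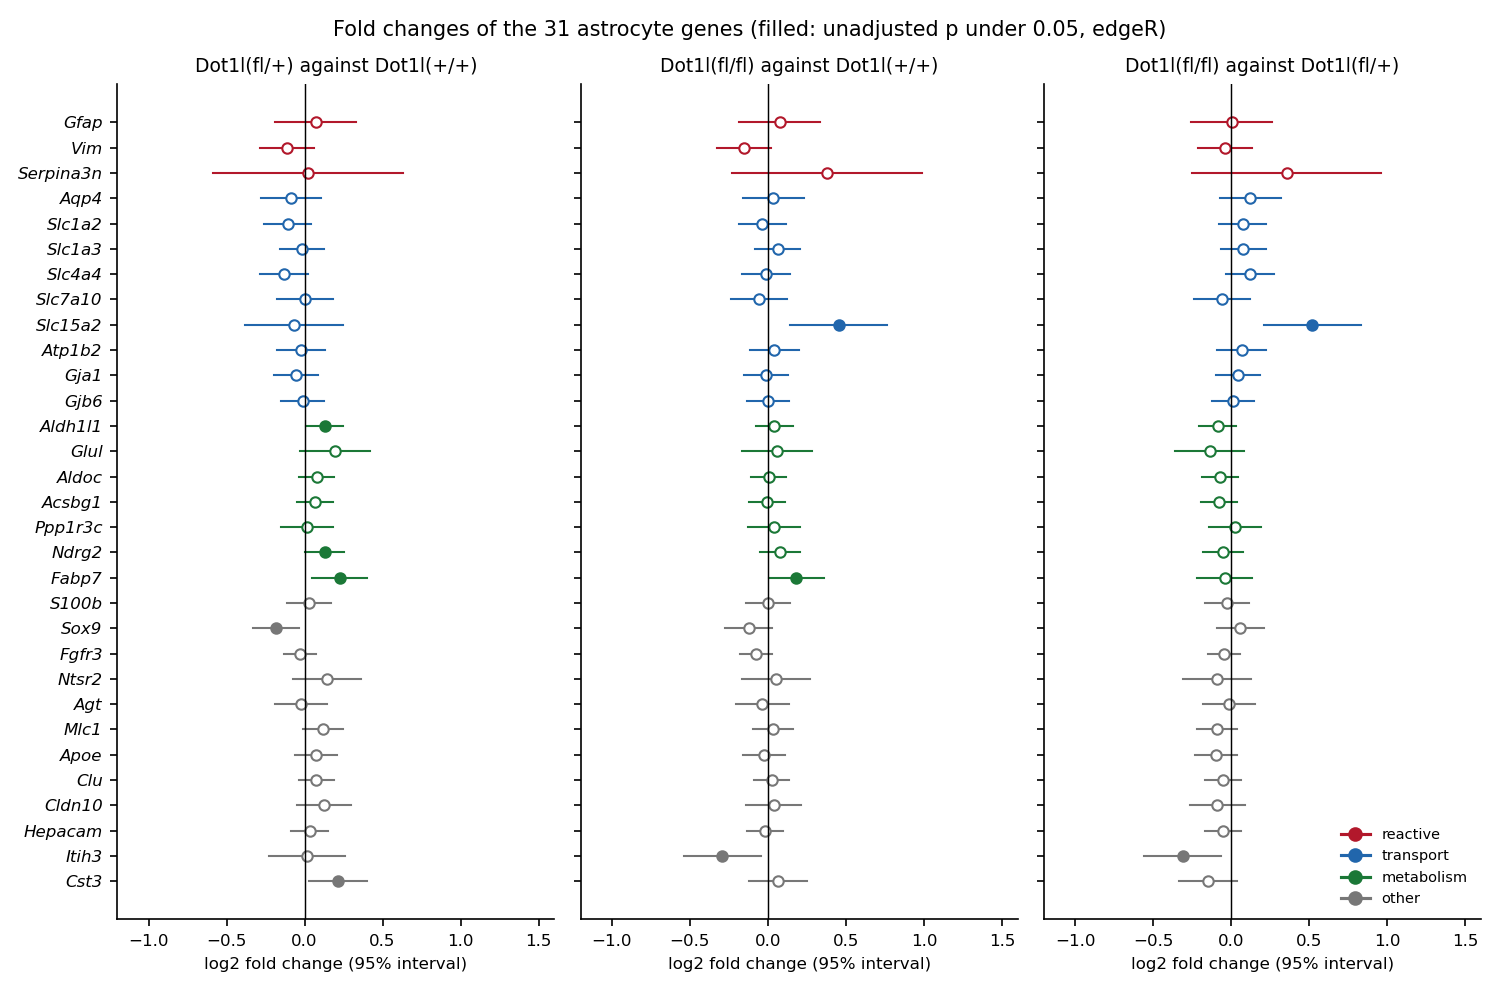
Log2 fold change (x axis) with its 95% interval for each of the 31 astrocyte genes (y axis, coloured by role) in the 3 comparisons, from edgeR; filled points have an unadjusted p under 0.05. Filled are 5 genes in Dot1l(fl/+) against control, 3 in Dot1l(fl/fl) against control and 2 between the floxed genotypes, and Serpina3n has the widest interval.

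Per exon length, the 31 genes in control midbrain ran from Apoe as the highest to Slc15a2, the peptide transporter gene, as the lowest. The metabolism genes were spread over this order, from Glul in place 3 to Aldh1l1 in place 27. Levels between genes are given as RPKM (CPM per kilobase of exon, mean ± SD over 3 control pools). Apoe, the carrier of cholesterol from astrocytes to neurons, was highest at 637 ± 29.7 RPKM. It was followed by Cst3, the secreted protease inhibitor cystatin C, at 453 ± 18.3, by Glul, which makes glutamine, at 372 ± 54.2, by Aldoc, the brain form of the glycolytic enzyme aldolase, at 254 ± 12.4, and by Ndrg2 at 221 ± 13.6. None of these neighbours in the order overlapped in their control pools. The reactive genes lay apart from each other: Gfap was 10th at 70.6 ± 2.18 RPKM, Serpina3n 26th at 16.6 ± 5.28 and Vim 30th at 9.30 ± 0.629. Slc15a2 was lowest at 4.26 ± 0.481 RPKM, below all control pools of Vim. From Fabp7 in 24th place at 20.1 ± 1.2 RPKM down to Vim each gene overlapped with the next. With the length of the longest transcript in place of all exons the ends of the order stayed, with Apoe 1st and Slc15a2 31st, whereas Ndrg2 and Clu moved to 4th and 5th, ahead of Aldoc, which moved from 4th to 6th, Gja1 moved from 20th to 12th and Vim from 30th to 27th.

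**Figure D2:**
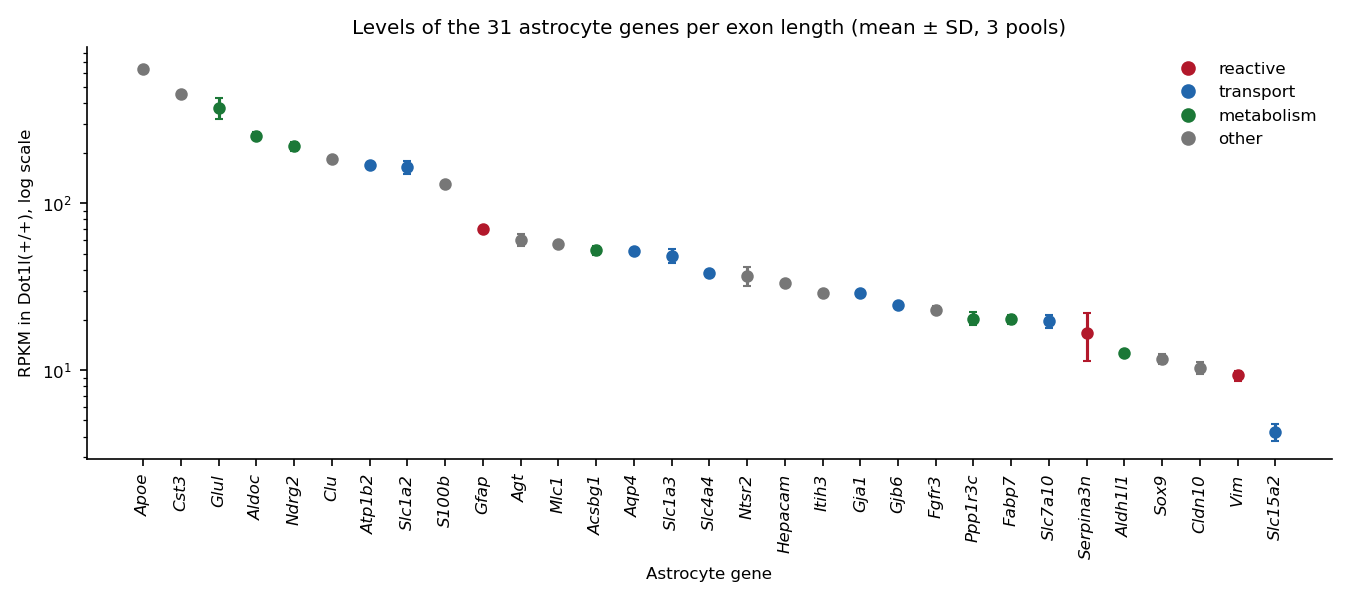
RPKM in Dot1l(+/+) on a log axis for each of the 31 genes, from highest to lowest, as mean ± SD over 3 pools and coloured by role. Apoe is at 637 and Slc15a2 at 4.26 RPKM, and the 3 reactive genes are in places 10, 26 and 30.

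None of the reactive genes had an unadjusted p under 0.05 in edgeR with all 9 libraries and the filter on low counts, and their values had no common direction. Gfap encodes the main intermediate filament of astrocytes. Gfap had 294, 308 and 291 CPM in Dot1l(+/+) pools 1 to 3, 279, 394 and 265 in those of Dot1l(fl/+) and 289, 353 and 298 in those of Dot1l(fl/fl). The groups overlapped, and the highest values were those of pool 2 in both floxed genotypes. In Dot1l(fl/+) the log2 fold change was 0.07 (SE 0.12, 95% interval -0.19 to 0.33, edgeR adjusted p = 0.904), and in Dot1l(fl/fl) it was 0.08 (SE 0.12, interval -0.18 to 0.33, adjusted p = 0.999). Without Dot1l(fl/fl) pool 2 the latter was -0.02. Without Dot1l(fl/+) pool 2 the change in Dot1l(fl/+) was -0.13, and Dot1l(fl/fl) had 0.20 more than Dot1l(fl/+) on the log2 scale, with an unadjusted edgeR p of 0.0160 (adjusted p = 0.377).

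Vim, the vimentin gene, is also expressed in endothelial, mural, meningeal and ependymal cells. Its level was 47.0, 41.0 and 44.2 CPM in Dot1l(+/+) pools 1 to 3, 38.0, 45.1 and 39.2 in those of Dot1l(fl/+) and 37.1, 42.2 and 39.6 in those of Dot1l(fl/fl). Of the 3 pools of each floxed genotype, 2 were below all controls, and the pools still overlapped. In Dot1l(fl/+) the log2 fold change was -0.11 (SE 0.0803, edgeR adjusted p = 0.732), and in Dot1l(fl/fl) it was -0.15 (SE 0.0811, interval -0.33 to 0.02, edgeR adjusted p = 0.999). An unadjusted p of 0.05 was passed in 4 of 19 alternatives in Dot1l(fl/fl), of which 3 left out 1 library, and in 1 in Dot1l(fl/+), without its pool 2 (-0.19). Vim was the reactive gene with a value below 0 in both floxed genotypes, and Gfap and Serpina3n had values above 0 in both. The summed level of the 10 endothelial markers was 376 to 411 CPM in control, 381 to 388 in Dot1l(fl/+) and 379 to 383 in Dot1l(fl/fl), with no marker at 0, and that of the 5 meningeal markers was 139 to 192, 123 to 172 and 141 to 186. The 8 mural markers summed to 301 to 345, 276 to 323 and 307 to 350.0 CPM and the 7 ependymal markers to 26.3 to 29.3, 22.5 to 40.6 and 26.4 to 28.6, in the same order and with no marker at 0. The part of these cells in the Vim values was not tested.

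Serpina3n, whose product inhibits serine proteases and is secreted by reactive astrocytes, varied most. It had 46.6, 26.0 and 30.1 CPM in Dot1l(+/+) pools 1 to 3, 47.6, 29.5 and 26.9 in those of Dot1l(fl/+) and 35.0, 32.1 and 67.3 in those of Dot1l(fl/fl). One pool per genotype was high, pool 1 in Dot1l(+/+) and in Dot1l(fl/+) and pool 3 in Dot1l(fl/fl), and the groups overlapped. In Dot1l(fl/+) the log2 fold change was 0.02 (SE 0.28, interval -0.59 to 0.63, edgeR adjusted p = 0.992), and in Dot1l(fl/fl) it was 0.38 (SE 0.28, interval -0.23 to 0.99, edgeR adjusted p = 0.999). Without Dot1l(fl/fl) pool 3 the latter was -0.02, and without Dot1l(+/+) pool 1 it was 0.66, with an unadjusted edgeR p of 0.0449. With all pools the interval for Dot1l(fl/fl) reached from -14.8% to 98%. In edgeR without a filter on low counts the same 0.38 had an adjusted p of 0.00592, and over the 19 alternatives the adjusted p ran from that value to 1. With an offset for length and GC content of the genes the value in Dot1l(fl/+) was -0.02.

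Serpina3n belongs to a cluster of near-identical copies on chromosome 12, between which counting can split reads. Of 10 listed copies, 3 had no count in any library (Serpina3a, Serpina3j and Serpina3k), and all 10 together had 3.28 to 7.28 CPM. Serpina3g took 3.54 ± 0.438 CPM of this in control. Serpina3m was counted at 1.32 CPM in Dot1l(+/+) pool 1, 1.80 in Dot1l(fl/+) pool 1 and 2.55 in Dot1l(fl/fl) pool 3, the 3 pools with the most Serpina3n, and at no more than 0.0800 in the other pools. True expression of Serpina3m and reads shared with Serpina3n cannot be told apart here, and how much of the level of Serpina3n depends on shared reads was not tested.

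Since pools vary within a genotype, the reactive genes were also compared over the 9 pools after removal of the genotype means. Gfap and Vim had a Pearson r of 0.74 (exact permutation p = 0.0880 over 216 arrangements within genotypes, adjusted over 3 relations 0.264) and a Spearman rho of 0.57 (exact permutation p = 0.176). Without the 2 pools furthest from the median of Gfap, Dot1l(fl/+) pool 2 and Dot1l(fl/fl) pool 2, r was 0.26, so that the relation rests on those pools. Serpina3n had an r of -0.29 with Gfap (exact permutation p = 0.579, adjusted 0.868) and of 0.03 with Vim (exact permutation p = 0.954, adjusted 0.954). Of the 3 promoters shown above, only that of Gfap held the searched motif, and no pair of the 3 genes passed the test.

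**Figure D3:**
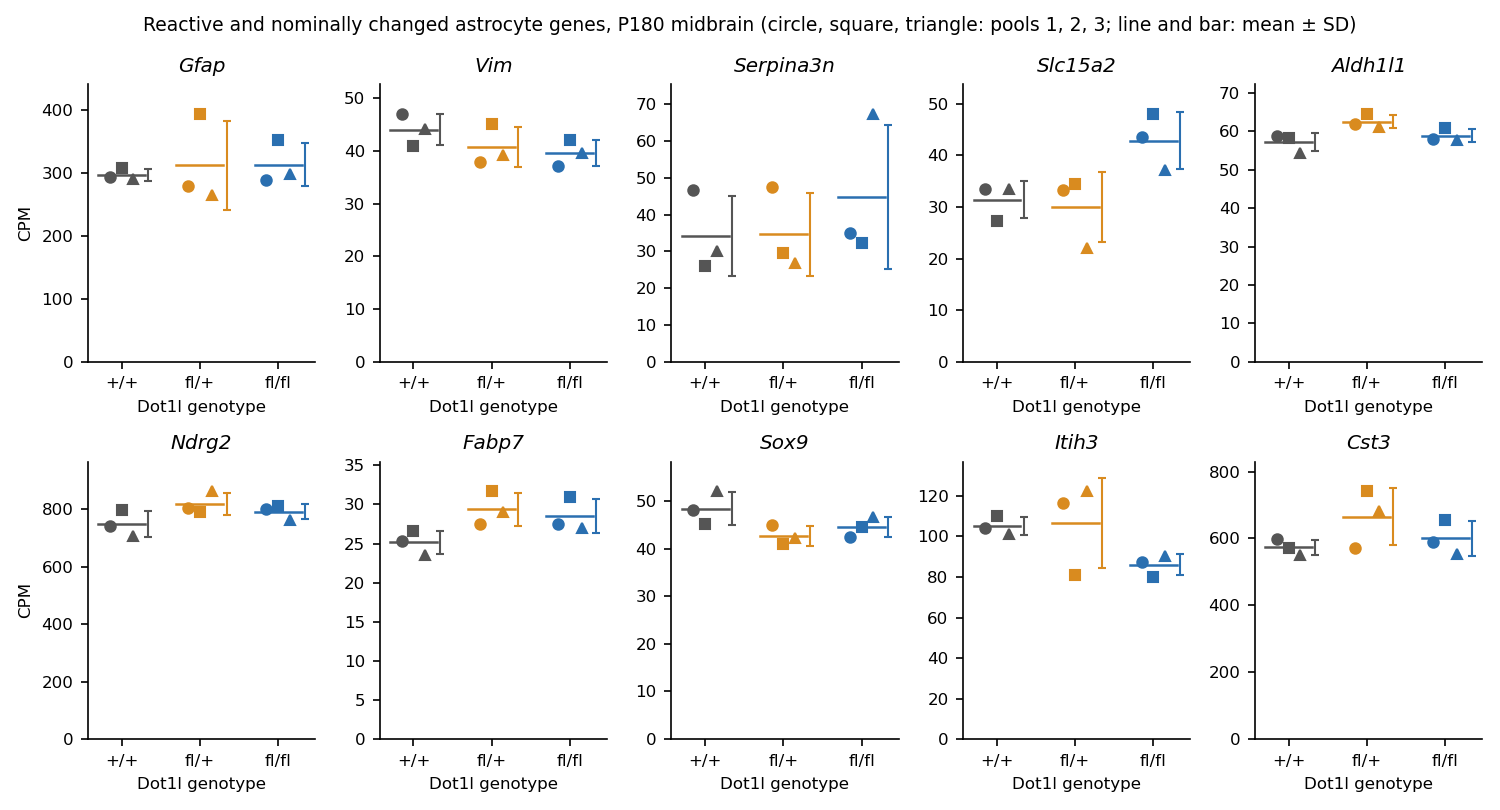
CPM (y axis, from 0) in each of the 9 pools by Dot1l genotype (x axis) for the 3 reactive genes and the 7 genes with an unadjusted p under 0.05 in any comparison; symbols mark pools 1, 2 and 3, lines the mean and bars the SD. Slc15a2 lies higher in all 3 Dot1l(fl/fl) pools than in the other 6, and Serpina3n has 1 high pool in each genotype.

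Among the 9 transport genes only Slc15a2 had an unadjusted p under 0.05 in any comparison in edgeR with all 9 libraries and the filter on low counts. Slc15a2 encodes the peptide transporter PEPT2, which in brain is found in astrocytes and in the choroid plexus, where it takes up small peptides. It had 33.4, 27.3 and 33.4 CPM in Dot1l(+/+) pools 1 to 3, 33.4, 34.4 and 22.1 in those of Dot1l(fl/+) and 43.5, 48.0 and 37.1 in those of Dot1l(fl/fl). All 3 Dot1l(fl/fl) pools were above all 6 others, whereas Dot1l(+/+) and Dot1l(fl/+) overlapped. Against control the log2 fold change was 0.45 in Dot1l(fl/fl) (SE 0.15, interval 0.14 to 0.77), which is 36.9% higher, with an unadjusted edgeR p of 0.00800 (adjusted p = 0.999). Against Dot1l(fl/+) it was 0.52 (SE 0.15, interval 0.21 to 0.83, unadjusted edgeR p of 0.00320, adjusted p = 0.602). In Dot1l(fl/+) against control it was -0.07 (SE 0.15, edgeR adjusted p = 0.929), and -0.18 to 0.11 with 1 library left out. Both differences of Dot1l(fl/fl) stayed at an unadjusted p under 0.05 in all 19 alternatives, with a log2 fold change of 0.37 to 0.54 against control and 0.34 to 0.63 against Dot1l(fl/+).

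With DESeq2 on the 2 genotypes alone the difference in Slc15a2 from control had an adjusted p of 0.0467, over all 19 alternatives from 8.54e-05 to 1. That fit called 8 of 27193 genes in all. The 7 choroid plexus markers, of which none was at 0, summed to 68.7 to 157 CPM in control, 116 to 593 in Dot1l(fl/+) and 42.1 to 48.8 in Dot1l(fl/fl). The 3 Dot1l(fl/fl) pools had the least choroid plexus RNA and the most Slc15a2, and Dot1l(fl/+) pool 3 had the most choroid plexus RNA and the least Slc15a2. Among the other pools the order was not inverse, since Dot1l(+/+) pool 2 had the lowest level of both in control. The part of choroid plexus in these values was not tested.

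Of the glutamate transporters, Slc1a2 had log2 fold changes of -0.11 and -0.03 in Dot1l(fl/+) and Dot1l(fl/fl) against control, and Slc1a3 had -0.02 and 0.06. Neither gene had an unadjusted p under 0.05 in edgeR with all 9 libraries and the filter on low counts. In Dot1l(fl/fl) Slc1a3 passed that level in 1 of 19 alternatives, with a value of 0.01 to 0.14 over all of them. Slc1a2 (GLT-1), which clears most synaptic glutamate, had 2168 ± 191, 2009.8 ± 143 and 2116 ± 30.8 CPM in Dot1l(+/+), Dot1l(fl/+) and Dot1l(fl/fl) (mean ± SD over 3 pools, as for the genes that follow). Slc1a3 (GLAST), the other astrocytic glutamate transporter, had 414 ± 39.2, 409 ± 18.5 and 432 ± 9.79 CPM in Dot1l(+/+), Dot1l(fl/+) and Dot1l(fl/fl). The intervals for Dot1l(fl/fl) reached from -12% to 8.31% for Slc1a2 and from -5.36% to 15.1% for Slc1a3. Slc4a4, the sodium bicarbonate cotransporter that buffers pH, had 411 ± 19.3, 375 ± 40.3 and 407 ± 14.6 CPM in Dot1l(+/+), Dot1l(fl/+) and Dot1l(fl/fl). Its log2 fold change in Dot1l(fl/+) of -0.13 (SE 0.0717, edgeR adjusted p = 0.636) was the largest of the transport genes in that comparison, and it passed an unadjusted p of 0.05 in 2 of 19 alternatives and between the floxed genotypes in 1. Slc7a10, which exchanges D-serine and other small amino acids, had 41.5 ± 3.69, 41.5 ± 3.74 and 39.9 ± 1.78 CPM in Dot1l(+/+), Dot1l(fl/+) and Dot1l(fl/fl).

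For water and ions, Aqp4, the water channel of the endfeet, had 324 ± 10.7, 305 ± 38.8 and 332 ± 37.1 CPM in Dot1l(+/+), Dot1l(fl/+) and Dot1l(fl/fl), and the pools overlapped. It passed an unadjusted p of 0.05 in 1 of 19 alternatives in Dot1l(fl/+) against control and in 2 between the floxed genotypes. Atp1b2, the beta2 subunit of the sodium pump, had 696 ± 30.0, 684 ± 69.4 and 716 ± 37.6 CPM in Dot1l(+/+), Dot1l(fl/+) and Dot1l(fl/fl). The gap junction genes Gja1 (connexin 43) and Gjb6 (connexin 30) lay close to control in Dot1l(fl/fl), at log2 fold changes of -0.01 (SE 0.0644) and -0.0010 (SE 0.0631). Gja1 had 296 ± 6.52, 285 ± 20.8 and 294 ± 21.5 CPM in Dot1l(+/+), Dot1l(fl/+) and Dot1l(fl/fl). Gjb6 had 65.6 ± 1.5, 65.0 ± 3.90 and 65.6 ± 4.26 CPM in Dot1l(+/+), Dot1l(fl/+) and Dot1l(fl/fl). Over the 9 transport genes the median log2 fold change was -0.05 in Dot1l(fl/+), with 8 of 9 below 0, and -0.0010 in Dot1l(fl/fl).

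The metabolism genes lay slightly higher than control in Dot1l(fl/+). All 7 had a fold change above 0, with a median log2 value of 0.13, and 3 of them, Fabp7, Aldh1l1 and Ndrg2, had an unadjusted p under 0.05 (4.30% of all genes were called higher). In Dot1l(fl/fl) 6 of 7 were above 0, with a median of 0.04, and 1 was called (2.21% of all genes were called higher). With 1 library left out that median was 0.0066 to 0.063, and without Dot1l(fl/fl) pool 2 only 4 of 7 were above 0. Between the floxed genotypes the median was -0.07 with 1 of 7 above 0. In the same Dot1l(fl/+) pools the markers of other cells moved in both directions. Higher than control were 8 of 12 oligodendrocyte genes, with a sum of 10921 to 11971 CPM in control and 11074 to 12492 in Dot1l(fl/+). So were 10 of 12 microglial, 7 of 7 ependymal and 7 of 7 choroid plexus genes. Lower than control were 6 of 8 mural, 5 of 5 meningeal, 6 of 10 endothelial, 4 of 7 neuron and 10 of 10 dopamine neuron genes. The sums of the microglial, ependymal and choroid plexus markers are given beside Cst3, Vim and Slc15a2. The part of these other cells in the metabolism values was not tested. Within each metabolism or transport group the genes are measured in the same pools and so are not independent of each other.

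Fabp7, the brain fatty acid binding protein of astrocytes and radial glia, was the member with an unadjusted p under 0.05 in both comparisons with control. It had 25.3, 26.6 and 23.6 CPM in Dot1l(+/+) pools 1 to 3, 27.5, 31.7 and 29.0 in those of Dot1l(fl/+) and 27.5, 31 and 27.0 in those of Dot1l(fl/fl). All 6 pools with a floxed allele were above the 3 controls. In Dot1l(fl/+) the log2 fold change was 0.23 (SE 0.0820, interval 0.05 to 0.40, edgeR adjusted p = 0.541), and in Dot1l(fl/fl) it was 0.18 (SE 0.0828, interval 0.0044 to 0.36, edgeR adjusted p = 0.999). The second lost its unadjusted call in 7 of 19 alternatives, and both comparisons share the control pools.

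Aldh1l1, an enzyme of folate metabolism that is widely used as a marker of all astrocytes, had 58.7, 58.4 and 54.4 CPM in Dot1l(+/+) pools 1 to 3, 62.0, 64.4 and 61.1 in those of Dot1l(fl/+) and 57.9, 60.7 and 57.7 in those of Dot1l(fl/fl). The 3 Dot1l(fl/+) pools were above the other 6, by 9.41% over control (log2 fold change 0.13, SE 0.0550, edgeR adjusted p = 0.568), while Dot1l(fl/fl) overlapped with control at 2.95% (adjusted p = 0.999). Its spread between pools, an SD of 0.048 on the log2 scale, was among the narrowest 5.63% of all genes. Ndrg2, of the N-myc downstream-regulated family, had 743, 798 and 706 CPM in Dot1l(+/+) pools 1 to 3, 805, 791 and 862 in those of Dot1l(fl/+) and 801, 810.0 and 761 in those of Dot1l(fl/fl). Of its Dot1l(fl/+) pools 2 were above all controls, with a log2 fold change of 0.13 (SE 0.0589, edgeR adjusted p = 0.589).

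The other metabolism genes had no unadjusted p under 0.05 in edgeR with all 9 libraries and the filter on low counts. Glul, glutamine synthetase, had 1236 ± 180.2, 1416 ± 4.96 and 1287 ± 186 CPM in Dot1l(+/+), Dot1l(fl/+) and Dot1l(fl/fl), with pools of 1125, 1444 and 1140.0 CPM in control. Against control its Dot1l(fl/+) level differed by 0.20 on the log2 scale (SE 0.10, edgeR adjusted p = 0.632), and it passed an unadjusted p of 0.05 in 9 of 19 alternatives, among them both DESeq2 fits. Aldoc had 829.6 ± 40.6, 876 ± 13.6 and 833 ± 22.4 CPM in Dot1l(+/+), Dot1l(fl/+) and Dot1l(fl/fl), and its Dot1l(fl/+) pools were above all 6 others, at a log2 fold change over control of 0.08 (SE 0.0523, edgeR adjusted p = 0.713). Acsbg1, which activates long fatty acids, had 189 ± 12.1, 198 ± 7.46 and 188 ± 2.26 CPM in Dot1l(+/+), Dot1l(fl/+) and Dot1l(fl/fl). Ppp1r3c, which targets protein phosphatase to glycogen, had 55.4 ± 4.96, 56.2 ± 5.04 and 57.0 ± 1.5 CPM in Dot1l(+/+), Dot1l(fl/+) and Dot1l(fl/fl).

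Among the 12 other genes, Itih3 differed in Dot1l(fl/fl). It encodes a heavy chain that binds hyaluronan in the extracellular matrix. Itih3 had 104, 110.1 and 101 CPM in Dot1l(+/+) pools 1 to 3, 116, 81.2 and 122 in those of Dot1l(fl/+) and 87.2, 80.2 and 90.4 in those of Dot1l(fl/fl). All 3 Dot1l(fl/fl) pools were below all controls, and Dot1l(fl/+) pool 2 lay among the Dot1l(fl/fl) pools. The log2 fold change of Dot1l(fl/fl) was -0.29 against control (SE 0.11, interval -0.54 to -0.05, unadjusted edgeR p of 0.0234, adjusted p = 0.999), a level that fell by 18.4%. Against Dot1l(fl/+) it was -0.31 (SE 0.11, unadjusted edgeR p of 0.0171, adjusted p = 0.726). DESeq2 on the 2 genotypes alone gave an adjusted p of 0.0269 against control, over the 19 alternatives from 0.00218 to 1. The unadjusted call was lost in 2 of 19 alternatives against control, without Dot1l(+/+) pool 2 (log2 fold change -0.26, unadjusted edgeR p of 0.0775) and without Dot1l(fl/fl) pool 2 (-0.24, unadjusted edgeR p of 0.0870). Against Dot1l(fl/+) it was lost in 3, at -0.27 to -0.20 on the log2 scale, without Dot1l(fl/+) pool 1, Dot1l(fl/+) pool 3 or Dot1l(fl/fl) pool 2. Without Dot1l(fl/+) pool 2, the pool among those of Dot1l(fl/fl), it was -0.47 (edgeR adjusted p = 0.00858).

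Sox9, the transcription factor of astrocyte identity, had 48.1, 45.2 and 52.0 CPM in Dot1l(+/+) pools 1 to 3, 45.0, 40.9 and 42.2 in those of Dot1l(fl/+) and 42.4, 44.5 and 46.6 in those of Dot1l(fl/fl). The 3 Dot1l(fl/+) pools were below all controls, with a log2 fold change of -0.18 (SE 0.0690, interval -0.33 to -0.03, edgeR adjusted p = 0.541), and that of Dot1l(fl/fl) was -0.12 (SE 0.0694, edgeR adjusted p = 0.999). The share of all genes called lower in Dot1l(fl/+) was 4.09%. Cst3 is made by astrocytes, microglia and the choroid plexus. It had 598, 571 and 552 CPM in Dot1l(+/+) pools 1 to 3, 573, 740.3 and 682 in those of Dot1l(fl/+) and 589.6, 656 and 555 in those of Dot1l(fl/fl). Its Dot1l(fl/+) pools 2 and 3 were above all controls, at a log2 fold change of 0.21 (SE 0.0858, interval 0.03 to 0.40, edgeR adjusted p = 0.551), and the pools overlapped. The 12 microglial markers, none at 0, summed to 394 to 410 CPM in control, 393 to 473 in Dot1l(fl/+) and 427 to 466 in Dot1l(fl/fl), and in Dot1l(fl/+) their highest sums were in pools 2 and 3 as well. The part of microglia and choroid plexus in the Cst3 values was not tested. Without Dot1l(fl/+) pool 2 its log2 fold change was 0.13. With an offset for length and GC content of the genes the change in Cst3 was 0.12 (with an unadjusted edgeR p of 0.118).

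Without Dot1l(+/+) pool 3 none of the 31 genes had an unadjusted p under 0.05 between Dot1l(fl/+) and control in edgeR. With the 2 remaining controls the log2 fold changes kept their sign, at 0.18 for Fabp7, 0.19 for Cst3, 0.097 for Aldh1l1, 0.090 for Ndrg2 and -0.12 for Sox9. Without Dot1l(fl/+) pool 2 the calls of Aldh1l1 (0.11), Fabp7 (0.17), Sox9 (-0.15) and Cst3 (0.13) were lost as well. Over the 19 alternatives the call of Ndrg2 was lost in 7, of Cst3 in 6, of Aldh1l1 in 5 and of Fabp7 and Sox9 in 2 each.

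Apoe, which stood highest per length, had 1434, 1312 and 1342 CPM in Dot1l(+/+) pools 1 to 3, 1334, 1525 and 1444 in those of Dot1l(fl/+) and 1276, 1349 and 1392 in those of Dot1l(fl/fl), and the genotypes overlapped (log2 fold changes over control of 0.07 and -0.02, SE 0.0623 for both). Clu, a secreted chaperone, had 637 ± 4.47, 671 ± 36.6 and 647 ± 17.0 CPM in Dot1l(+/+), Dot1l(fl/+) and Dot1l(fl/fl). S100b, a calcium-binding protein, had 194 ± 0.910, 197 ± 21.5 and 193 ± 4.09 CPM in Dot1l(+/+), Dot1l(fl/+) and Dot1l(fl/fl). Agt, the angiotensin precursor, had 114 ± 9.22, 112 ± 10.6 and 111 ± 7.98 CPM in Dot1l(+/+), Dot1l(fl/+) and Dot1l(fl/fl). None of these genes had an unadjusted p under 0.05 with all 9 libraries and the filter, while Clu in Dot1l(fl/+) against control, with 2 pools above all controls, and Apoe between the floxed genotypes each passed it in 1 of 19 alternatives.

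The receptors and membrane proteins also had no unadjusted p under 0.05 in that fit. In Dot1l(fl/+) against control Ntsr2 had the largest log2 fold change of those named next, 0.14 (SE 0.10), followed by Cldn10 (0.12, SE 0.0813) and Mlc1 (0.12, SE 0.0594), of which Mlc1 passed an unadjusted p of 0.05 in 2 of 19 alternatives and Ntsr2 in 1. Fgfr3, a growth factor receptor, had 165 ± 7.65, 161 ± 2.87 and 156 ± 2.98 CPM in Dot1l(+/+), Dot1l(fl/+) and Dot1l(fl/fl), and its Dot1l(fl/fl) pools were below all Dot1l(fl/+) pools but overlapped with control. Ntsr2, a neurotensin receptor, had 114 ± 14.5, 126 ± 15.2 and 118 ± 11.9 CPM in Dot1l(+/+), Dot1l(fl/+) and Dot1l(fl/fl). Mlc1 and Hepacam form a complex at the endfeet. Mlc1 had 159 ± 3.55, 172 ± 14.5 and 162 ± 5.02 CPM in Dot1l(+/+), Dot1l(fl/+) and Dot1l(fl/fl). Hepacam had 111 ± 1.41, 113 ± 3.94 and 109 ± 7.18 CPM in Dot1l(+/+), Dot1l(fl/+) and Dot1l(fl/fl). Cldn10, a claudin, had 26.6 ± 2.19, 29.0 ± 0.601 and 27.2 ± 2.25 CPM in Dot1l(+/+), Dot1l(fl/+) and Dot1l(fl/fl). Of the 12 genes, 9 were above 0 in Dot1l(fl/+) against control, 5 in Dot1l(fl/fl) against control and 1 in Dot1l(fl/fl) against Dot1l(fl/+), where the median was -0.07. With the offset for length and GC content 3 were above 0 between the floxed genotypes, and the median was -0.035.

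Genes whose pools did not overlap between genotypes were about as frequent among the 31 as among all genes. Between Dot1l(fl/+) and control 4 genes were apart (Aldh1l1, Aldoc and Fabp7 above, Sox9 below), or 12.9%, where 13.3% of all genes were (6.84% above and 6.47% below). In Dot1l(fl/fl) against control 3 were apart (Slc15a2 and Fabp7 above, Itih3 below), or 9.68%, where the shares of all genes were 10.3% in all, 5.03% above and 5.25% below. Between the floxed genotypes 4 were apart (Slc15a2 above, Aldh1l1, Aldoc and Fgfr3 below), where the shares of all genes were 11.1% in all, 5.98% above and 5.14% below. A test of any difference among the 3 genotypes gave an unadjusted edgeR p under 0.05 for 3 genes (6.44% of all genes), Slc15a2 at 0.00565 (adjusted p = 0.749), Itih3 at 0.0311 (adjusted p = 0.761) and Fabp7 at 0.0388 (adjusted p = 0.761).

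The comparison of reactive with transport and metabolism genes showed no separation by genotype. For each pool the mean log2 CPM of a role was taken relative to its control mean. The 3 reactive genes less the 16 transport and metabolism genes gave 0.19, -0.15 and -0.04 in the Dot1l(+/+) pools, 0.04, 0.03 and -0.19 in those of Dot1l(fl/+), and -0.09, -0.07 and 0.27 in those of Dot1l(fl/fl). The highest value, in Dot1l(fl/fl) pool 3, was that of the pool with the most Serpina3n. Taken as a median of fold changes, reactive less transport and metabolism genes gave 0.03 in Dot1l(fl/+), 0.04 in Dot1l(fl/fl) and -0.01 between them, on the log2 scale. The sign of these values was not stable: in Dot1l(fl/+) it was -0.04 with the offset for length and GC content, -0.03 with the block and the offset and -0.14 to 0.14 with 1 library left out, in Dot1l(fl/fl) it was -0.06 to 0.08 with 1 library left out, and between the floxed genotypes it was 0.0078 with the offset and -0.08 to 0.18 with 1 library left out. Since the genes were chosen with results known, no test was made of these scores.

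In Dot1l(fl/+) the metabolism and the transport genes lay on opposite sides of control. The genes of each role were listed with results of these data known, so no test was made of this split either. In its 3 pools the 7 metabolism genes were at 0.097, 0.16 and 0.11, above the control pools at 0.0076, 0.050 and -0.057. In those pools the 9 transport genes were at -0.028, -0.028 and -0.12, below the control pools at -0.014, -0.0019 and 0.016. In Dot1l(fl/fl) the metabolism genes overlapped with control, at 0.018, 0.13 and 0.030. The 12 other genes were at -0.018, -0.018 and -0.056 in Dot1l(fl/fl), below the control pools at 0.0088, 0.0065 and -0.015. The mean of the transport genes was at 0.027, 0.11 and 0.017 in Dot1l(fl/fl), narrowly above the control pools. That mean holds Slc15a2 at 0.45 on the log2 scale, whereas the median of the 9 transport genes was -0.0010, with 5 of 9 below 0. This median was 0.011 with the offset for length and GC content, with 6 of 9 above 0. With 1 library left out it was -0.025 to 0.028. The roles also differ in exon length, with a median of 7361 bases for transport and 3323 for metabolism genes (all genes tested 3972.5). With an offset for length and GC content of the genes the median in Dot1l(fl/+) was 0.12 on the log2 scale for metabolism genes, with 7 of 7 above 0, and -0.03 for transport genes, with 2 of 9 above 0. With each library left out in turn it was 0.090 to 0.15 for metabolism and -0.067 to -0.035 for transport genes.

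**Figure D4:**
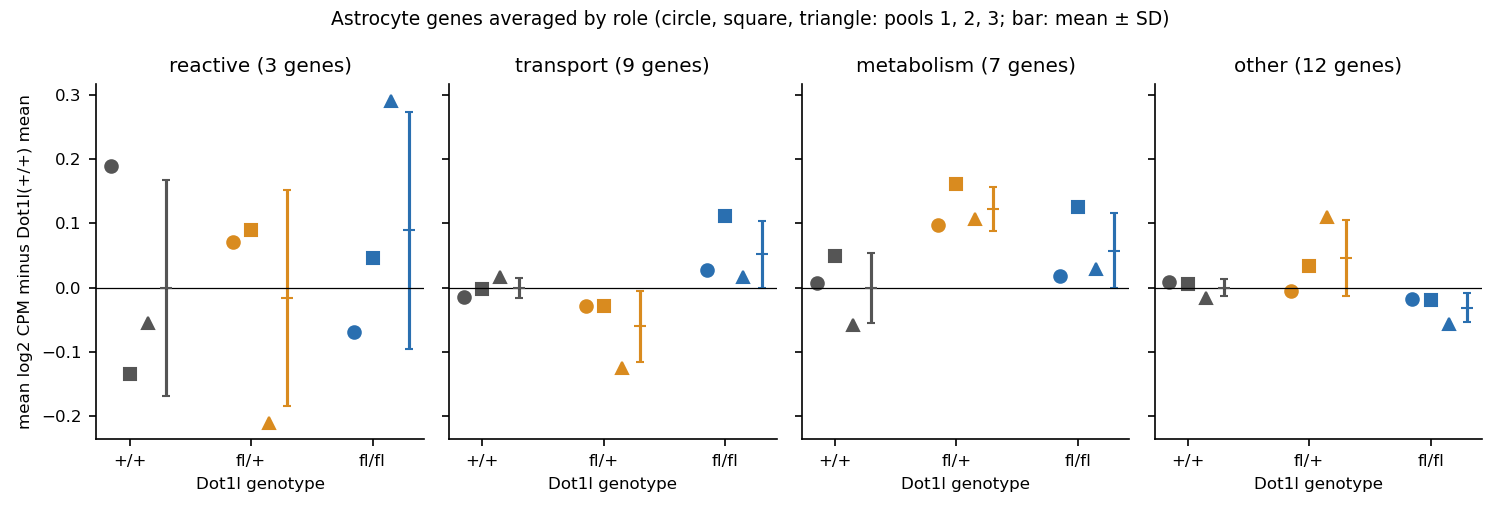
Mean log2 CPM of the genes of each role in each pool, minus the mean of the 3 Dot1l(+/+) pools (y axis), by Dot1l genotype (x axis); symbols mark pools 1, 2 and 3 and bars the mean ± SD. Reactive genes run from -0.21 to 0.29 with all genotypes overlapping, while in Dot1l(fl/+) the metabolism genes lie above and the transport genes below control. In Dot1l(fl/fl) the transport genes lie narrowly above control (lowest pool 0.017, highest control 0.016). The other genes lie narrowly below it there (highest pool -0.018, lowest control -0.015).

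Further genes of the same roles had medians close to 0. Of 33 more transport and metabolism genes, all tested, 3 were higher and 1 lower at an unadjusted edgeR p under 0.05 in Dot1l(fl/+) against control, and 4 were higher and 1 lower in Dot1l(fl/fl), with medians of 0.02 and 0.01. Of all genes, 4.30% were higher and 4.09% lower in the first comparison, and 2.21% and 1.72% in the second. The 3 metallothioneins, which bind zinc and copper, were higher in both comparisons, which share the control pools. Mt1 had 55.3, 69.3 and 65.9 CPM in Dot1l(+/+) pools 1 to 3, 78.5, 94.3 and 85.3 in those of Dot1l(fl/+) and 89.1, 108 and 67.5 in those of Dot1l(fl/fl), with a log2 fold change of 0.44 (SE 0.13, edgeR adjusted p = 0.541) and 0.48 (SE 0.13, adjusted p = 0.999). Mt2 gave 0.33 and 0.45, and Mt3 0.52 and 0.60. Their Dot1l(fl/fl) pool 3 lay near control, at 67.5, 35.7 and 52.5 CPM for Mt1, Mt2 and Mt3. Etnppl, an astrocytic lyase of phosphoethanolamine, had 70.7, 87.9 and 70.9 CPM in Dot1l(+/+) pools 1 to 3, 68.0, 66.2 and 66.7 in those of Dot1l(fl/+) and 66.3, 65.6 and 60.2 in those of Dot1l(fl/fl), so that all 6 pools with a floxed allele were below the 3 controls (log2 fold change -0.19 and -0.26, edgeR adjusted p = 0.555 and 0.999). Pla2g7, a phospholipase of lipid mediators, was the other gene that differed, at 0.17 in Dot1l(fl/fl) against control (SE 0.0592, edgeR adjusted p = 0.999) and 0.15 against Dot1l(fl/+).

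Of 38 more genes reported in reactive astrocytes, 33 had enough counts to be tested, with medians of -0.04 for Dot1l(fl/+) and -0.0078 for Dot1l(fl/fl) against control. In Dot1l(fl/+) 1 was higher than control, Steap4 (93 counts over all 9 libraries), and 3 were lower: Cd44 at -0.29, Aspg at -0.36 and B3gnt5 at -0.69 on the log2 scale. In Dot1l(fl/fl) 1 was lower, Sphk1, at -0.53 (SE 0.17, edgeR adjusted p = 0.999). Against Dot1l(fl/+) 2 were higher, Aspg at 0.38 and Ptgs2 at 0.27, and the complement gene C3 was lower at -0.51 (SE 0.21, edgeR adjusted p = 0.733). C3 had 2.46, 2.79 and 2.71 CPM in Dot1l(+/+) pools 1 to 3, 2.23, 3.71 and 2.59 in those of Dot1l(fl/+) and 2.24, 2.02 and 1.70 in those of Dot1l(fl/fl). Of all genes, 4.30% were higher and 4.09% lower in the first of these comparisons, 2.21% and 1.72% in the second, and 3.60% and 2.87% in the third.

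Of 24 more genes of astrocyte identity and signalling, 4 were lower in Dot1l(fl/+) than in control: the transcription factors Rfx4 (-0.21) and Glis3 (-0.37), the receptor Bmpr1b (-0.23) and the proteoglycan Gpc4 (-0.32, SE 0.11, edgeR adjusted p = 0.541), where 4.09% of all genes were lower. None differed between Dot1l(fl/fl) and control at an unadjusted p under 0.05 in edgeR. Between the floxed genotypes Glis3 (0.56), Gpc4 (0.40) and the phagocytic receptor Mertk (0.26) were higher in Dot1l(fl/fl), where 3.60% of all genes were. Gpc4, whose product is secreted by astrocytes and promotes excitatory synapses, had 15.7, 14.6 and 19.2 CPM in Dot1l(+/+) pools 1 to 3, 13.8, 13.2 and 12.6 in those of Dot1l(fl/+) and 17.3, 18.1 and 16.9 in those of Dot1l(fl/fl), with the Dot1l(fl/+) pools below all 6 others. All of these genes had an edgeR adjusted p above 0.05.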

How the data were processed

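RNA of dissected midbrain was sequenced by the authors from 9 directional libraries (NextSeq), 3 pools of 3 mice per genotype. Per the labels' processing notes, bcl2fastq 2.17, Trimmomatic 0.30, GRCm38.p4 and DESeq2 1.10.1 were used; the aligner and counter are not given in the sources used here. The deposited values are raw counts per Ensembl gene. The deposited comparisons (fold changes and p-values of the authors' DESeq2 run) were not used.

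Identifiers were matched to GENCODE M21 (47310 of 47729, 99.9% of counts). Counts were normalized with TMM, filtered with filterByExpr and tested with edgeR 4.0.16 (limma 3.58.1, R 4.3.3), with all 9 libraries in 1 fit, genotype as the only factor and Benjamini-Hochberg adjustment over 17671 genes. Unadjusted and adjusted thresholds were 0.05. RPKM used the union of exons. DESeq2 1.42.0, other scalings and filters, a block, an offset fitted with splines of 4 degrees of freedom to length and GC content and each library left out were alternatives. The steps were tested on simulated data. Python 3.11.15 was used for tables and figures.

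The members and lists were chosen with earlier results of these data known. Values in every library are given for the 3 reactive genes, members with an unadjusted p under 0.05 and the 2 highest and 2 lowest per length. From each further astrocyte list up to 5 genes per comparison with the lowest unadjusted p under 0.05 are named, and from lists of other cells up to 2. Library totals were 16422135 to 28403218 counts; with 3 pools per genotype the spread between pools sets the precision, and an exact permutation test of 3 against 3 cannot go below 0.1.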

Additional observations from a re-analysis of the deposited data

How the results depend on the processing

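Among alternative values of the main results, 325 kept their direction and side of the threshold and the others are given here. For the 3 reactive genes and the members with an unadjusted p under 0.05, in the comparisons concerned, 300 did, 34 lost the unadjusted threshold, 10 passed it and 17 changed sign. The count of members at an unadjusted p under 0.05 (5 in Dot1l(fl/+) against control) was 8 without a filter on low counts and 3 with the offset for length and GC content; leaving out 1 library gave 0 to 7 (0 without Dot1l(+/+) pool 3, 3 without Dot1l(fl/+) pool 3). Between the floxed genotypes (2) it was 5 without the filter and 1 to 6 with 1 library left out (6 without Dot1l(fl/+) pool 1, 4 without pool 2, 1 without pool 3). The count for any difference (3) was 7 without the filter and 2 to 6 with 1 library left out (6 without Dot1l(fl/+) pool 1, 5 without its pool 2 and 5 without Dot1l(+/+) pool 2). At an adjusted p of 0.05 (0 in edgeR) 1, 3 and 3 members were called in the 3 comparisons in edgeR without the filter, 2 in Dot1l(fl/fl) against control with DESeq2 on the 2 genotypes alone, and 0 to 1 between the floxed genotypes with 1 library left out. The cause was not tested.

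With 1 library left out, the median log2 fold change of the 31 genes was 0.014 to 0.048 in Dot1l(fl/+), -0.0064 to 0.024 in Dot1l(fl/fl) and -0.064 to -0.016 between them, reactive less transport and metabolism genes between the floxed genotypes gave -0.082 to 0.18, and the count over the further lists in Dot1l(fl/+) was 15 to 40 (main 26). Dot1l in Dot1l(fl/+) had -0.18 without the filter (unadjusted edgeR p of 0.00643), -0.18 with the offset (p of 0.0343) and -0.29 to -0.063 with 1 library left out, and between the floxed genotypes -0.0059 to 0.23.

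The study pooled litter-matched sets, but the labels do not say that the pool number marks them. Deviations of same-numbered pools correlated at 0.085 to 0.46, with 8 of 9 over 0.1. Those of pools with different numbers correlated at -0.39 to 0.17, with 4 of 18 over 0.1. With the replicate number as a block, the count for any difference was 6, and 5 with the offset as well; Dot1l in Dot1l(fl/+) was -0.19 (unadjusted edgeR p of 0.0163), or -0.19 with the offset (p of 0.0153), where between the floxed genotypes it was 0.15 (p of 0.0473). No other main result changed its side of the threshold or its count by over 1.5 times under the block.

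Gfap between the floxed genotypes was -0.00042 with DESeq2 on the 2 genotypes, -0.0025 without the filter, -0.0016 with at least 10 counts in every library and -0.10 to 0.20 with 1 library left out; against control it was -0.13 to 0.18 in Dot1l(fl/+) and -0.017 to 0.13 in Dot1l(fl/fl). Serpina3n in Dot1l(fl/+) was -0.016 with the offset, -0.0057 with the block and the offset, and -0.27 to 0.30 with 1 library left out; Dot1l(fl/fl) gave -0.021 to 0.66 against control and -0.046 to 0.65 against Dot1l(fl/+). Vim between the floxed genotypes was -0.093 to 0.039 with 1 library left out. Without the filter Serpina3n had an unadjusted edgeR p of 1.55e-05 in Dot1l(fl/fl) against control (adjusted p = 0.00592). The lowest count among the 31 genes was 411, and 3 pools per genotype limit what could be detected.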

Other observations

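Genes of the other cells in the dissection, listed with earlier results known, were described with the same edgeR fit, and none passed an adjusted p of 0.05. Genes called here had an unadjusted p under 0.05, as had 4.30% of all genes higher and 4.09% lower in Dot1l(fl/+) against control, 2.21% and 1.72% in Dot1l(fl/fl) against control, and 3.60% and 2.87% between the floxed genotypes. The 10 genes of dopamine neurons, which express Cre, were all below control in both floxed genotypes, with a median log2 fold change of -0.20 in Dot1l(fl/+) (4 called) and of -0.44 in Dot1l(fl/fl) (8 called). Slc6a3, the dopamine transporter, had -0.26 and -0.68, Slc18a2, the vesicular monoamine transporter, -0.31 and -0.68, and Th, which makes the dopamine precursor, -0.71 in Dot1l(fl/fl) (edgeR adjusted p = 0.248). The 7 general neuron genes had medians of -0.06 and 0.02, with Nefm at -0.16 in Dot1l(fl/+) and Snap25 at 0.21 between the floxed genotypes.

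The 7 choroid plexus genes were all above control in Dot1l(fl/+) (median 0.68, 4 called) and all below it in Dot1l(fl/fl) (median -0.80, 3 called), and all 7 were called between the floxed genotypes. Ttr had 116, 39.5 and 106 CPM in Dot1l(+/+) pools 1 to 3, 79.7, 137 and 505 in those of Dot1l(fl/+), and 19.2, 13.4 and 15.6 in those of Dot1l(fl/fl). Clic6 had 0.94 and -0.80, and Folr1 had -2.31 between the floxed genotypes.

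The 12 microglial genes had medians of 0.15 in both comparisons with control, with 3 called in Dot1l(fl/fl), among them Trem2 (0.31) and Aif1 (0.42). The 12 oligodendrocyte genes had medians of 0.09 and -0.02, with 3 called in Dot1l(fl/+), among them Cldn11 (0.27) and Cnp (0.17), and 5 between the floxed genotypes, where Cldn11 had -0.22 and Cnp -0.19. Of the 4 precursor genes (medians 0.04 and 0.10) Pdgfra had 0.12 between the floxed genotypes. Endothelial (-0.01 and -0.06), mural (-0.10 and 0.05) and ependymal genes (0.30 and 0.12) had no member at an unadjusted p under 0.05, and of the 5 meningeal genes (-0.19 and -0.02) Col1a1 had -0.44 in Dot1l(fl/+).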
